A study of Spodoptera frugiperda with 15 samples.

Results

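The comparison of spinetoram with control covered the genes that were expressed in 3 or more of 6 whole-body libraries of wild-type fall armyworm (*Spodoptera frugiperda*), a noctuid moth whose larvae feed on maize and other crops. A gene entered when its deposited FPKM (fragments per kilobase of transcript, scaled to the library's fragment total) was 1 or more in 3 or more of the 6 libraries compared, and 10353 of the 20784 genes in the table did so (49.8%). The 3 control libraries and the 3 spinetoram libraries carried the genotype WT, and no allele or agent other than spinetoram was named for either group. The labels give no dose, exposure time, stage, sex or number of animals per library, and they do not say whether the libraries came from separate cohorts, so each p-value measures only the spread between these libraries. Of the 10353 genes, 8421 reached 1 FPKM in every one of the 6 libraries. The 542 genes just inside the limit reached it in exactly 3 libraries, among them 63 in the spinetoram libraries alone and 96 in the control libraries alone, while 525 genes just outside reached it in 2. Where 1 group lies wholly under 1 FPKM, a gene entered through the other group alone, and lack of overlap then follows from the limit.

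Spinetoram is an insecticide of the spinosyn class. Spinosyns act on nicotinic acetylcholine receptors of the insect nervous system, at a site apart from that of the neonicotinoids, and overexcite it. Insects clear such compounds with cytochrome P450 monooxygenases, carboxyl/cholinesterases, glutathione S-transferases, UDP-glycosyltransferases and membrane transporters, and the study's title names the detoxification metabolism induced by insecticides as its subject. In a caterpillar much of this machinery sits in the midgut and fat body, which in a whole-body library are mixed with muscle, epidermis and every other tissue. Fewer cells of a type and less RNA per cell cannot be told apart in such libraries.

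Total estimated counts in the 6 libraries ran from 50600821 to 77183281 units. When these libraries were placed by multidimensional scaling (first axis 33.2% of the variance), spinetoram replicates 1 and 3 lay at -2.24 and -2.33 and control replicates 2 and 3 at 2.52 and 2.43. Control replicate 1 (-0.33) and spinetoram replicate 2 (-0.06) lay close together between them, so the first axis did not separate the groups fully. The model was fitted to all 15 libraries of the study, which also include 3 each for emamectin benzoate, tetrazolidamide and cyantraniliprole, and its biological coefficient of variation was 54.8%.

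Of 10351 genes that could be tested, 562 differed between spinetoram and control (edgeR quasi-likelihood test, Benjamini-Hochberg adjusted p under 0.05), 416 higher and 146 lower. That is 5.43% of the tested genes of this set, 4.02% higher and 1.41% lower, beside 4.01% of all 15505 genes tested in the table (2.89% higher and 1.12% lower). The 4.02% and 1.41% are the shares to set beside the counts of each list below. The FPKM of the groups did not overlap for 544 of the 562, where 25.4% of all tested genes of the set had no overlap, and 22.6% in the whole table. The median log2 fold change was 1.39 among the higher genes and -0.97 among the lower ones, against 0.03 over the tested set, and 93 genes were higher by 2 or more on the log2 scale and 12 lower by as much. Calls leaned to the higher side, at 74.0% of the 562, but with limma-trend on log2(FPKM + 1) the split was 354 higher and 249 lower (58.7% higher).

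The number of calls rested on single libraries. Without control replicate 2 the test called 29 genes and without control replicate 3 it called 950. Leaving out spinetoram replicate 1 gave 169 and leaving out spinetoram replicate 2 gave 186. A fit to the 6 libraries alone called 2 genes with edgeR, both lipases, and 790 with DESeq2. Only 24 of the 562 were called in all 6 fits that each left out 1 control or spinetoram library, and 93 more in 5 of them. For genes named below, the number of these 6 fits that kept the call is given where it was all 6, and for some others. Calls without such a number can be fragile. Among them, LOC118266127 was kept in none of the fits. LOC118269418, LOC118262965, LOC118280278, LOC118263693, LOC118272996, LOC118267783, LOC118279231 and LOC118267707 were each kept in 1.

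**Figure D1:**
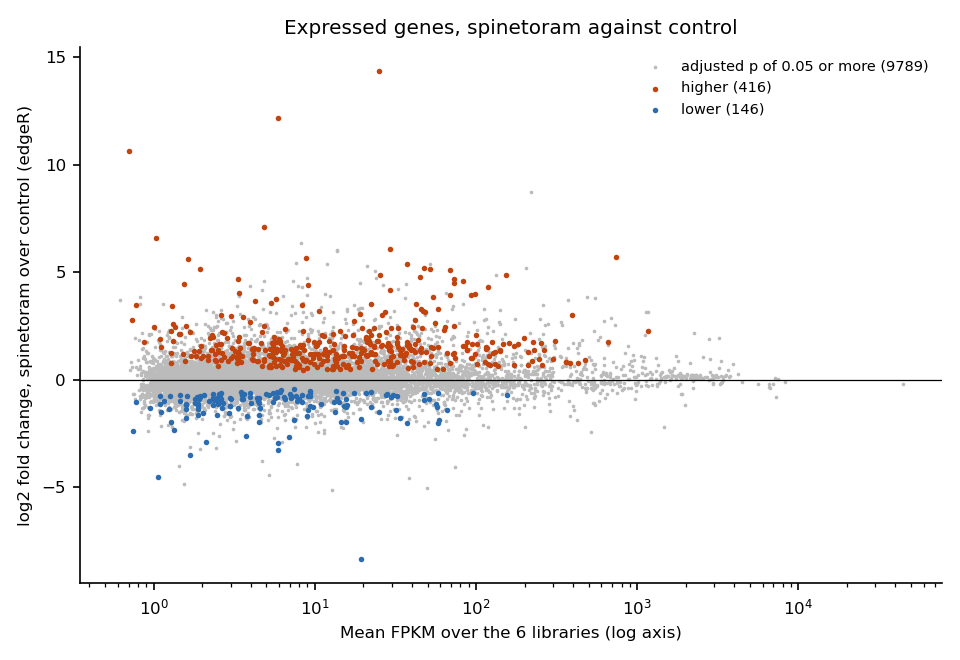
Each point is 1 of the 10351 tested genes, placed by its mean FPKM over the 6 libraries (log axis) and its edgeR log2 fold change of spinetoram over control; the 416 higher genes are red, the 146 lower genes blue and all others grey. The higher genes have a median of 1.39 and the lower genes one of -0.97, and the 3 red points above 10 are genes without a count in the 3 control libraries, whose plotted height depends on the fit.

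Among the detoxification families, 23 of 288 tested genes were higher and 4 lower (7.99% and 1.39%, beside 4.02% and 1.41% over the tested set), and the median log2 fold change of the 288 was 0.35. Those 23 came from every one of the 8 lists, from 1 to 8 genes each. DESeq2 on the same libraries called 48 higher and 5 lower. edgeR called none of the 288 without control replicate 2; without spinetoram replicate 1 it called 8 higher and 1 lower, without spinetoram replicate 2 10 higher and 1 lower, and without control replicate 3 41 higher and 2 lower.

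The list of CYP6 and CYP9 cytochrome P450 enzymes, families that hold many of the insect P450s tied to xenobiotic oxidation, also took in genes described as CYP321. It had 4 of 39 members higher (10.3%, beside 4.02% over the tested set), 1 of them a CYP321, and a median log2 fold change of 0.46. Largest was LOC118263048 (cytochrome P450 6B6-like), at 0.558, 0.977 and 0.398 FPKM in the control libraries and 5.28, 7.44 and 10.9 FPKM in the spinetoram libraries. It entered the set through the spinetoram libraries alone, and its log2 fold change was 3.69 ± 0.70 (SE, adjusted p = 0.02). This gene was chosen after its values were seen, as was LOC118279836 (CYP6AB12; log2 fold change 1.43, adjusted p = 0.041), whose lowest spinetoram value of 5.94 FPKM lay under the highest control value of 6.44. A second 6B6-like gene, LOC118274175, was more abundant, with 8.56, 2.92 and 8.62 FPKM in control and 41.6, 24.5 and 32.3 FPKM with spinetoram, without overlap (log2 fold change 2.40 ± 0.46, adjusted p = 0.019). CYP321B1 (LOC118262947), which also entered through the spinetoram libraries alone, went from 0.0942 to 0.297 FPKM in control to 1.05 to 1.5 FPKM with spinetoram (2.78 ± 0.52, adjusted p = 0.018). None of the 4 passed without control replicate 2, and without control replicate 3 the list had 8 higher.

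In the CYP4 family, whose members include fatty acid hydroxylases, 2 of 28 were higher. LOC118275193 (cytochrome P450 4C1-like) stood at 1.33, 0.859 and 1.22 FPKM in control and 7.39, 9.56 and 3.56 FPKM with spinetoram, and LOC118282370, with the same description, at 0.609 to 1.32 and 2.96 to 7.08 FPKM. Neither pair of ranges overlapped, and the log2 fold changes were 2.71 ± 0.39 (adjusted p = 0.009) and 2.16 ± 0.43 (adjusted p = 0.023), each lost only without control replicate 2, while without control replicate 3 the list had 5 higher. Summed over the 28 members, however, the CYP4 level varied more among controls (274, 754 and 1340 FPKM) than between groups (1510, 1420 and 853 FPKM with spinetoram). CYP306A1 (LOC118266714), a Halloween enzyme that hydroxylates the ecdysteroid precursor, was the 1 higher gene of 18 other P450s, with 11, 9.27 and 8.96 FPKM in control and 23.6, 19.2 and 16.7 FPKM with spinetoram (1.13 ± 0.20, adjusted p = 0.016).

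Carboxyl/cholinesterases, which hydrolyse ester bonds in hormones, neurotransmitters and pesticides, gave 8 higher and 1 lower of 64 (12.5% and 1.56%, beside 4.02% and 1.41% over the tested set). Their median was 0.75, with 55 of 64 above 0. Among them LOC118276150 (liver carboxylesterase B-1-like) was lowest in control, at 0.504, 0.196 and 1.59 FPKM, and reached 6.26, 4.50 and 5.18 FPKM with spinetoram (2.95 ± 0.56, adjusted p = 0.02). LOC118275674 (esterase E4-like) went from 1.2 to 1.98 FPKM to 3.37 to 6.38 FPKM (1.83 ± 0.34, adjusted p = 0.017). Of the juvenile hormone esterase-like genes, named for the enzyme that degrades juvenile hormone, LOC118263481 was higher (8.29 to 11.4 against 12.5 to 23.4 FPKM; 1.03 ± 0.25, adjusted p = 0.041), and so was LOC118266127 (0.92 ± 0.23, adjusted p = 0.046). LOC118280278, with the same name, was lower, at 10.5, 9.53 and 20.3 FPKM in control and 5.58, 6.81 and 3.16 FPKM with spinetoram (-1.22 ± 0.31, adjusted p = 0.046). Calls in this family were fragile: no higher gene passed without control replicate 2 or without spinetoram replicate 1, 1 passed without spinetoram replicate 2 and 5 without control replicate 1. The 3 juvenile hormone esterase-like genes were also the calls of the 33 ecdysteroid and juvenile hormone genes, 2 higher and 1 lower.

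The conjugating enzymes and transporters had few calls, and none of them was left without control replicate 2. Of 33 glutathione S-transferases, which couple glutathione to electrophiles, 2 were higher and 1 lower. The epsilon-class gene LOC118261931 was higher in each spinetoram library (3.94, 3.83 and 3.28 FPKM) than in each control library (0.466, 1.03 and 1.5 FPKM; 2.01 ± 0.34, adjusted p = 0.014), and the theta-1-like gene LOC118269418 by 1.02 ± 0.23 (adjusted p = 0.031). In the opposite direction, the zeta-class gene LOC118262965 fell by 1.28 on the log2 scale (SE 0.30, adjusted p = 0.039), from 15.5, 24.9 and 27.4 FPKM to 8.13, 9.13 and 8.39 FPKM. A single UDP-glycosyltransferase of 27 passed, LOC118277895, from 0.447, 0.873 and 1.12 FPKM to 1.88, 2.13 and 1.29 FPKM (1.25 ± 0.30, adjusted p = 0.039). Of 41 ABC transporters, which pump substrates across membranes, 3 were higher, including LOC118262270 (ABCC3; 3.77 to 5.68 against 8.81 to 12.9 FPKM, 1.24 ± 0.24, adjusted p = 0.022) and LOC118264149 (sub-family A member 1-like; 1.44 ± 0.30, adjusted p = 0.026). The remaining one, LOC118262637 (multidrug resistance protein 1-like), named after its values were seen, went from 2.31, 3.07 and 5.78 FPKM to 10.1, 8.83 and 7.04 FPKM (1.36 ± 0.31, adjusted p = 0.034). No ABC transporter passed without spinetoram replicate 1 or 2, 1 did without control replicate 1 and 8 did without control replicate 3.

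Sulfotransferases and the aldo-keto and short-chain reductases split both ways, 2 higher and 2 lower of 38. Both higher genes were cytosolic sulfotransferases: LOC118266608 went from 5.70, 9.32 and 9.38 FPKM to 31.8, 17.1 and 18.3 FPKM (1.57 ± 0.28, adjusted p = 0.016) and LOC118264769 by 1.43 ± 0.26 (adjusted p = 0.016). Both lower genes were reductases, and both entered the set through the control libraries alone. AKR2E4-like LOC118279828, named for a silkworm aldo-keto reductase, fell from 2.45, 4.58 and 4.18 FPKM to 0.397, 0.321 and 0.678 FPKM (-2.87 ± 0.58, adjusted p = 0.023), and the carbonyl reductase LOC118273633 fell from 2.24 to 2.76 FPKM to 0.492 to 0.841 FPKM (-1.78 ± 0.34, adjusted p = 0.019). None of the 4 passed without control replicate 2.

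No change was detected in the few nicotinic receptor genes that were expressed above the limit. The table held 17 genes described as nicotinic acetylcholine receptor subunits, and only 4 reached the expression limit of 1 FPKM in 3 or more libraries. None of the 4 passed edgeR's test or DESeq2's, and none had an unadjusted p under 0.05. Subunit genes under the limit that were tested did not pass edgeR's test either. Nearest was LOC118268389 (alpha-like), at 0.399, 0.314 and 0.117 FPKM in control and 0.479, 1.21 and 0.705 FPKM with spinetoram, without overlap (log2 fold change 1.62, adjusted p = 0.095). LOC118270347 (alpha-7-like) stood at 1.39, 2.02 and 1.73 FPKM in control and 2.13, 1.81 and 1.69 FPKM with spinetoram, with overlap (log2 fold change 0.24 ± 0.22, adjusted p = 0.57). LOC118263132 (alpha-5-like) was held at 2.51, 2.41 and 2.39 FPKM with spinetoram but ran from 1.17 to 5.04 FPKM in control (0.12 ± 0.83, adjusted p = 0.96). The beta-3-like pair LOC118279296 (-0.19 ± 0.43) and LOC118279341 (-0.31 ± 0.45) also overlapped, and their signs, with that of LOC118263132, turned when single control libraries were left out.

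The acetylcholinesterase-like genes, named for the enzyme that clears acetylcholine from the synapse, leaned upward without passing. All 6 had a positive log2 fold change, from 1.06 to 1.80 with a median of 1.38, and adjusted p-values from 0.062 to 0.18, and all 6 had an unadjusted p under 0.05. DESeq2 called 4 of them and limma 1. The most abundant, LOC118263896, chosen after its values were seen, stood at 9.66, 9.47 and 18.2 FPKM in control and 30.1, 32.4 and 24.9 FPKM with spinetoram, with no overlap (1.37 ± 0.38, adjusted p = 0.064). LOC118275478, which entered the set through the spinetoram libraries alone, stood at 0.503, 0.873 and 0.309 against 2.14, 1.35 and 2.11 FPKM (1.80 ± 0.49, adjusted p = 0.062). Sums over the 6 genes were 18.4, 20.5 and 32.0 FPKM in control and 55.8, 60.5 and 46.0 FPKM with spinetoram. Descriptions rest on similarity, so these genes may include esterases that are not synaptic.

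Among other genes of nerve and synapse, few passed. G protein-activated inward rectifier LOC118279386, a potassium channel, was the 1 higher gene of 23 voltage-gated and related channels, from 2.80, 1.40 and 2.99 FPKM to 9.74, 9.28 and 7.22 FPKM (1.99 ± 0.32, adjusted p = 0.013). Of 17 synaptic vesicle genes 2 were higher, the membrane fusion proteins syntaxin-7 (LOC118277871, 0.74 ± 0.16, adjusted p = 0.027) and synaptobrevin-1 (LOC118263693, 0.51 ± 0.12, adjusted p = 0.034), the second with overlapping groups. None of 9 receptors for GABA, glutamate, glycine or histamine passed edgeR's test, 1 had an unadjusted p under 0.05, and DESeq2 called 1. Summed levels of the 10 nervous system markers were 79.7 to 95.8 FPKM in control and 66.7 to 79.0 FPKM with spinetoram; none passed edgeR's test, 2 had an unadjusted p under 0.05 and DESeq2 called 2 lower. Their part in the nerve and synapse values was not tested.

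Digestive enzymes held many of the higher calls. Over the 5 gut lists (serine proteases, lipases, exopeptidases, carbohydrases and the V-type proton ATPase), 34 of 239 tested genes were higher (14.2%, beside 4.02% over the tested set) and none lower by edgeR, while DESeq2 called 82 higher and 1 lower. The median log2 fold change was 1.02, and 197 of 239 were above 0. Without control replicate 2 the count was 4, without spinetoram replicate 1 it was 14 and without spinetoram replicate 2 it was 18.

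Lipases, which release fatty acids from dietary lipids, held a pair of the genes with the smallest p-values of the comparison: 11 of 76 were higher and none lower by edgeR or DESeq2, with a median log2 fold change of 1.03. The pair described as lipase member H-A-like led. LOC118273155 stood at 1.38, 1.85 and 2.33 FPKM in the control libraries and at 105, 53.7 and 59.3 FPKM in the spinetoram libraries. LOC118273165 stood at 4.69, 3.39 and 4.11 FPKM in control and at 185, 94.1 and 121 FPKM with spinetoram. No library of one group came near the other. Their log2 fold changes were 5.40 ± 0.51 and 5.13 ± 0.52, both with adjusted p = 0.0017, the smallest of the comparison, which an O-acyltransferase-like gene shared; both calls held in all 6 leave-one-out fits, and these were the 2 genes edgeR called on the 6 libraries alone (adjusted p = 0.035). Both also stood above the mean of the other 3 treatments, by 2.04 ± 0.32 (adjusted p = 0.015) and 1.94 ± 0.33 (adjusted p = 0.019).

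Position linked most of the lipase calls. Of the 76 lipase genes, 24 lay in 2 blocks of 12, of 61.8 and 63.8 kb and 114.6 kb apart on one sequence of the authors' assembly, and the 12 genes of the first block matched those of the second in order, strand and description. At 4 matching places both copies were higher, and no other place had a call in either copy. All 24 log2 fold changes were above 0, with a median of 2.22, against 0.59 for the 52 lipases elsewhere, of which 3 were higher. The H-like pair LOC118273216 (11.9, 10.3 and 14.7 against 361, 154 and 161 FPKM; 4.30 ± 0.59, adjusted p = 0.0069, kept in all 6 fits) and LOC118273233 (6.06, 3.97 and 11.8 against 117, 46.8 and 69.6 FPKM; 3.54 ± 0.74, adjusted p = 0.025) held the last place of the blocks. Pancreatic triacylglycerol lipase-like pairs held the other two places, LOC118273225 and LOC118273258 with log2 fold changes of 4.59 and 4.19, and LOC118273313 and LOC118273303 with 2.42 and 2.27. Copies at one place differed by at most 2.18 on the log2 scale. Summed over the 24 genes, the level was 1260, 931 and 1180 FPKM in control and 4860, 2920 and 2230 FPKM with spinetoram.

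Copies so alike may not be separate genes or separate measurements. In the RefSeq gene table of the assembly AGI-APGP_CSIRO_Sfru_2.0, 11 of the 12 pairs were represented by exactly 1 of their copies, all on 1 chromosome, and the remaining pair by neither. Reads from copies that near each other in sequence could have been split between them, so each pair is best read as 1 value. Counted only over genes that the RefSeq table names, 5 of 56 lipases were higher. Over all tested genes of the set, 8093 had their name in that table and 459 of them were called (5.67%).

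Lipases outside the blocks included LOC118281120 (lipase member H-like), at 4.42, 3.91 and 2.95 FPKM in control and 71.1, 29.9 and 21.1 FPKM with spinetoram (3.51 ± 0.53, adjusted p = 0.01). The remaining calls were the acid digestive lipases LOC118264586 (127, 87.8 and 158 against 632, 267 and 251 FPKM; 1.73 ± 0.40, adjusted p = 0.036) and LOC118264583 (1.68 ± 0.42, adjusted p = 0.048), both without overlap but lost in most leave-one-out fits. Without control replicate 2 the lipase list kept 3 calls without spinetoram replicate 1 it kept 6 and without control replicate 1 it kept 7.

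**Figure D2:**
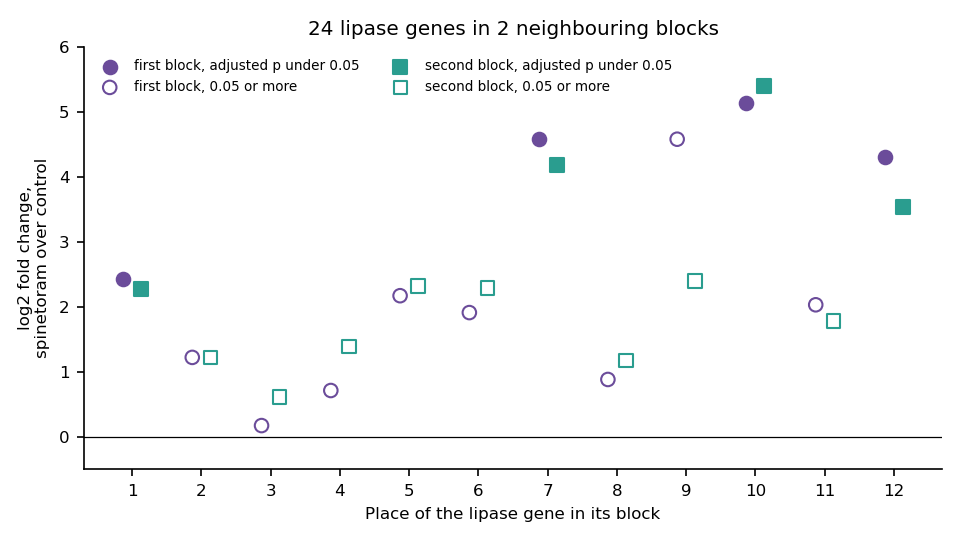
The 24 lipase genes of the 2 blocks are drawn by their place in the block (horizontal axis) and their edgeR log2 fold change of spinetoram over control (vertical axis), with circles for the first block and squares for the second; filled symbols had an adjusted p under 0.05. All 24 symbols lie above 0, and filled symbols occur in pairs at places 1, 7, 10 and 12.

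Serine proteases of the trypsin and chymotrypsin type, the main endopeptidases of the caterpillar midgut, had 10 of 70 members higher and none lower by edgeR (DESeq2 30 and 1), and the list's median of 1.74 was the second highest of all 46 lists. Trypsin-like precursor LOC118274829 stood at 8.73, 11 and 6.74 FPKM in control and 108, 82.9 and 196 FPKM with spinetoram (3.95 ± 0.62, adjusted p = 0.011). LOC118277912 (trypsin, alkaline C-like) went from 23 to 40.2 FPKM to 63.0 to 105 FPKM (1.51 ± 0.26, adjusted p = 0.014). An abundant trypsin, LOC118274806, chosen after its values were seen, stood at 600, 487 and 167 FPKM in control and at 2020, 1940 and 1790 FPKM with spinetoram (2.27 ± 0.51, adjusted p = 0.031). None of these groups overlapped. Chymotrypsin-type genes were also among the 10, such as LOC118268184 (chymotrypsinogen B-like; 72.3 to 100 against 164 to 228 FPKM, 1.33 ± 0.23, adjusted p = 0.014), likewise named after its values were seen. The summed level of the 70 genes was 7900, 8600 and 5550 FPKM in control and 24600, 26300 and 17000 FPKM with spinetoram. None of the 70 passed without control replicate 2; without spinetoram replicate 1 or 2 there were 4, and without control replicate 1 there were 16.

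Exopeptidases, which trim single residues from peptide ends, gave 8 higher of 45 (17.8%, beside 4.02% over the tested set) and none lower by either tool, with a median of 0.90. The aminopeptidase N-like gene LOC118268091 was low but held in all 6 leave-one-out fits, at 2.43, 2.50 and 3.61 FPKM in control and 11.2, 7.95 and 8.67 FPKM with spinetoram (1.82 ± 0.24, adjusted p = 0.0053). It lay in a run of 3 neighbouring aminopeptidase N-like genes that were all higher, with LOC118268089 (1.58, adjusted p = 0.021) and LOC118268090 (1.47, adjusted p = 0.016). LOC118268345 (membrane alanyl aminopeptidase-like) was more abundant, at 51.3, 53.8 and 84.6 against 173, 180 and 150 FPKM (1.54 ± 0.27, adjusted p = 0.015). The 8 calls became 1 without control replicate 2, 3 without spinetoram replicate 1 and 4 without spinetoram replicate 2.

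The V-type proton ATPase, the pump that energises transport across the midgut wall and other membranes, had 5 of 20 subunit genes higher by smaller steps (25.0%, beside 4.02% over the tested set). Of the 20, 18 lay above 0, and the median was 0.66. LOC118281994 (16 kDa proteolipid) stood at 265, 230 and 323 FPKM in control and 514, 393 and 437 FPKM with spinetoram (0.83 ± 0.14, adjusted p = 0.015), and subunit B (LOC118270369) at 187, 145 and 312 against 414, 376 and 374 FPKM (0.99 ± 0.20, adjusted p = 0.023). Both were without overlap. Without control replicate 2 none of the 20 passed, without control replicate 1 or either of spinetoram replicates 1 and 2 there was 1, without control replicate 3 there were 12 and without spinetoram replicate 3 there were 10. Limma called 2 of the 20 and the fit with replicate numbers as a block 2.

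Other digestive lists had fewer calls. Of 28 carbohydrases, enzymes that cut starch and sugars, whose median log2 fold change was 0.66 with 21 of 28 above 0, none passed edgeR's test, 6 had an unadjusted p under 0.05, all higher, and DESeq2 called 2. Maltase A1-like LOC118273364 was nearest, at 61.8, 73.2 and 109 against 139, 227 and 93.1 FPKM, with overlap (1.06 ± 0.31, adjusted p = 0.078). Of 6 peritrophins and midgut markers, structural proteins of the membrane that lines the gut lumen, all had a positive log2 fold change but only LOC118274190 passed, at 24, 7.99 and 39.6 against 130, 71.9 and 165 FPKM (2.49 ± 0.54, adjusted p = 0.028). Summed over the 6, the level was 49.4, 26.0 and 229 FPKM in control and 344, 180 and 252 FPKM with spinetoram, so control replicate 3 overlapped the spinetoram libraries. The part of gut tissue share in the digestive genes was not tested.

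**Figure D3:**
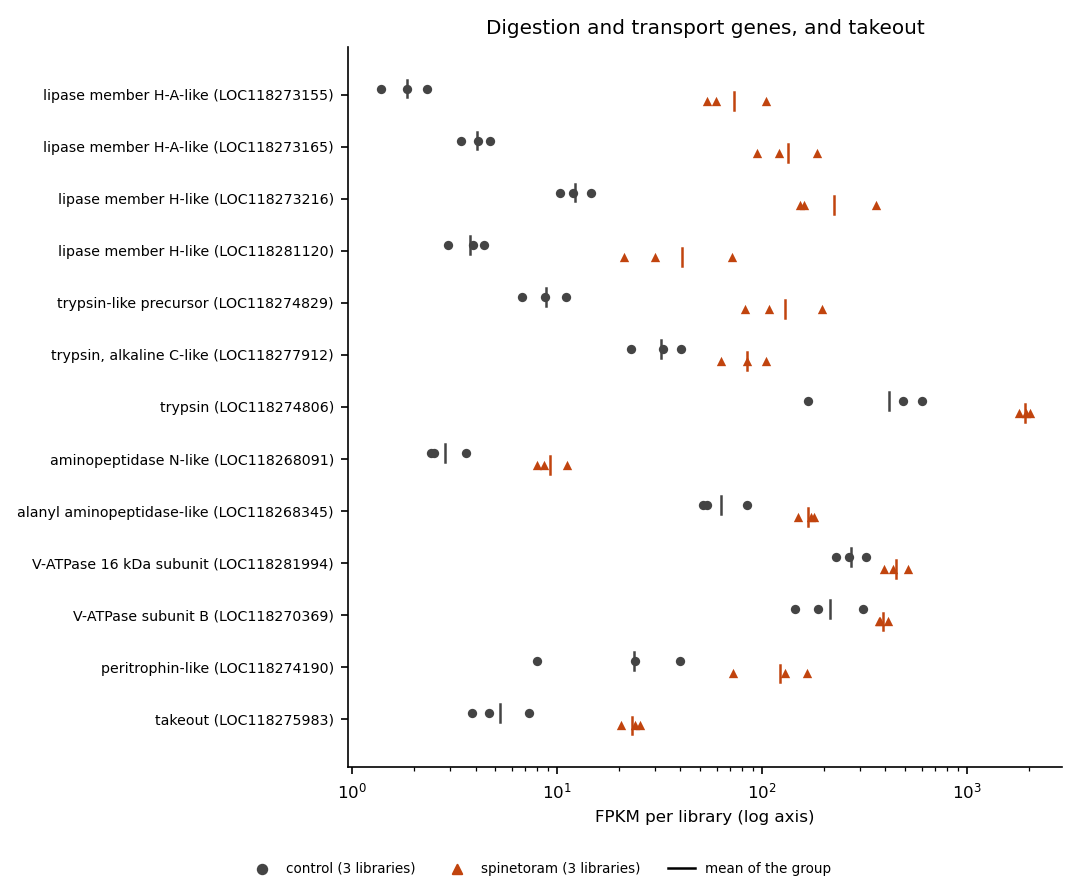
Deposited FPKM (log axis) of 13 genes, mostly of digestion and transport, in the 3 control libraries (grey circles) and the 3 spinetoram libraries (red triangles), with a vertical bar at each group's mean. No gene shown has overlapping groups, and the gap is widest for the 2 H-A-like lipases.

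Takeout-like proteins, small carriers related to juvenile hormone binding proteins and known from feeding and circadian behaviour in flies, gave 4 higher of 12 (33.3%, beside 4.02% over the tested set). Takeout LOC118275983 stood at 3.86, 4.64 and 7.31 FPKM in control and 20.5, 25.3 and 23.9 FPKM with spinetoram (2.28 ± 0.25, adjusted p = 0.0022) and held in all 6 leave-one-out fits. LOC118276090 went from 14.2, 9.33 and 26.7 FPKM to 120, 135 and 31.0 FPKM (2.66 ± 0.49, adjusted p = 0.017), spinetoram replicate 3 lying well under the other two. Since other members were lower without passing, the summed level of the 12 overlapped, at 560 to 1670 FPKM in control and 658 to 769 FPKM with spinetoram. The list kept 1 call without control replicate 2 and 2 without spinetoram replicate 1 or 2.

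Fatty acid desaturases, elongases and reductases had 6 higher of 76 and none lower by edgeR (DESeq2 13 and 1). The fatty acyl-CoA reductase LOC118280404, of a family that makes the alcohols of waxes and pheromones, went from 0.397, 0.753 and 1.5 FPKM to 15.5, 8.67 and 5.31 FPKM (3.6 ± 0.68, adjusted p = 0.019), and the elongase LOC118280831 from 8.32 to 18.2 FPKM to 21.8 to 40.6 FPKM (1.39 ± 0.30, adjusted p = 0.027). Elongase LOC118262014, which entered the set through the spinetoram libraries alone, had no count in the 3 control libraries and 1.05, 1.61 and 1.55 FPKM with spinetoram. Against a floor of 3 read pairs over the control group it was at least 48.7-fold higher, a bound for counting error only, and its call (adjusted p = 0.035) was lost in each of the 6 leave-one-out fits. No call of the list was left without control replicate 2, 1 without spinetoram replicate 1 and 2 without spinetoram replicate 2.

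Of 131 cuticle proteins 16 were higher (12.2%, beside 4.02% over the tested set), 115 did not pass and none was lower by edgeR or DESeq2, with a median log2 fold change of 1.32 and 112 of 131 above 0. These proteins bind chitin to build larval, pupal and adult cuticle, and their transcripts follow the moulting cycle. Spinetoram libraries differed much among themselves. Endocuticle structural glycoprotein SgAbd-8-like LOC118282304 stood at 26.3, 13.7 and 51 FPKM in control and at 157, 629 and 3550 FPKM with spinetoram (5.71 ± 1.16, adjusted p = 0.024), spinetoram replicate 3 being far above the rest. SgAbd-5-like LOC118282288 was more even, at 128, 50.4 and 99.9 against 358, 654 and 1080 FPKM (3.02 ± 0.43, adjusted p = 0.0084), and held in all 6 leave-one-out fits. So did cuticle protein 19-like LOC118262049, at 2.61, 1.51 and 2.69 against 7.91, 5.21 and 7.76 FPKM (1.72 ± 0.26, adjusted p = 0.01). A further SgAbd-5-like gene, LOC118261870, was listed at 0 to 1.97 FPKM in control and 4.37, 15.9 and 153 FPKM with spinetoram (adjusted p = 0.039), and larval cuticle protein A2B-like LOC118277982 at 0.518 to 5.84 and 28.6 to 198 FPKM (5.22 ± 1.3, adjusted p = 0.046, kept in 1 of the 6 fits).

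Some of these genes were neighbours. In a run of 7 adjacent expressed genes over 49.7 kb, all 7 were higher: 3 pupal cuticle protein C1B-like genes, cuticle protein 16.5 (LOC118272876, log2 fold change 4.68, adjusted p = 0.024) and 3 without an informative description. C1B-like LOC118272659 stood at 20.2, 6.3 and 4.84 FPKM in control and 78.9, 315 and 490 FPKM with spinetoram (4.90 ± 0.73, adjusted p = 0.01), LOC118272785 at 2.51, 1.16 and 1.64 against 19.4, 59.1 and 67.4 FPKM (4.86 ± 0.85, adjusted p = 0.015), and LOC118272786 at 7.57, 1.39 and 0.755 against 40.6, 21.7 and 197 FPKM (4.77 ± 0.98, adjusted p = 0.024). The 3 were also above the mean of the other treatments, by 3.21, 3.41 and 3.57 on the log2 scale (adjusted p = 0.01, 0.016 and 0.021). Being alike and adjacent, they may share reads.

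The sum over all cuticle proteins overlapped, however, at 39700, 44700 and 34000 FPKM in control and 48400, 36300 and 62200 FPKM with spinetoram. Without control replicate 2 the list kept 2 calls, without control replicate 1 it had 37, and without spinetoram replicate 1 it kept 11. Of 20 genes of chitin turnover both higher ones were chitin synthases, the enzymes that polymerise chitin: LOC118273105 (9.59, 7.05 and 19.2 against 40.6, 31.6 and 40.5 FPKM; 1.79 ± 0.36, adjusted p = 0.023) and LOC118273395 (7.73, 6.99 and 15.8 against 34.0, 24.3 and 18.6 FPKM; 1.47 ± 0.34, adjusted p = 0.036), each kept in 2 of the 6 fits. Of 19 tanning genes 2 were higher, a yellow-like protein (LOC118264620, 1.70 ± 0.35, adjusted p = 0.024) and an aromatic-L-amino-acid decarboxylase (LOC118272996, 1.80 ± 0.46, adjusted p = 0.049). Stage within the moulting cycle is not in the labels, and its part was not tested.

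Heat shock proteins and chaperonins as a list did not rise: 3 of 70 were higher (4.29%, beside 4.02% over the tested set), 24 of 70 lay above 0 and the median was -0.14. Those 3 were the Hsp70 genes LOC118280663 (0.127, 0.510 and 0.359 against 1.25, 1.79 and 1.96 FPKM; 2.44 ± 0.49, adjusted p = 0.023), LOC118280660 (0.733, 0.661 and 1.61 against 3.62, 3.98 and 2.74 FPKM; 1.93 ± 0.42, adjusted p = 0.028) and, named after its values were seen, LOC118280708 (2.15, adjusted p = 0.045), which form a run of adjacent genes and stayed under 5 FPKM. LOC118280663 and LOC118280708 entered the set through the spinetoram libraries alone. None of the 3 was called without control replicate 2 or without spinetoram replicate 2, and 1 was without control replicate 1.

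Antioxidant proteins gave 6 higher and 1 lower of 38 (15.8% and 2.63%, beside 4.02% and 1.41% over the tested set). The copper-zinc superoxide dismutase-like gene LOC118268790, whose product disarms superoxide, stood at 25.6, 35.9 and 24.1 FPKM in control and 79.6, 97.2 and 53.0 FPKM with spinetoram (1.53 ± 0.28, adjusted p = 0.016, kept in all 6 fits). A ferritin subunit, LOC118278734, which stores iron, went from 167, 162 and 191 FPKM to 296, 345 and 309 FPKM (0.99 ± 0.19, adjusted p = 0.018). TMX1-like LOC118276726, a thioredoxin-related transmembrane protein, fell from 10.4, 14.4 and 10.6 FPKM to 3.10, 3.64 and 2.17 FPKM (-1.88 ± 0.31, adjusted p = 0.013). The 6 higher calls became 1 without control replicate 2 or spinetoram replicate 2 and 2 without spinetoram replicate 1.

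Immune effectors were uneven between libraries. None of 29 antimicrobial peptides and lysozymes passed edgeR's test, although 28 of 29 lay above 0, the median of 1.76 was the highest of the 46 lists and 10 of them had an unadjusted p under 0.05 in the higher direction; DESeq2 called 6 higher and limma 1. Their summed level was 1580, 524 and 972 FPKM in control and 1720, 5940 and 1410 FPKM with spinetoram, so spinetoram replicate 2 stood alone and the others overlapped with control. Nearest to passing was lysozyme-like LOC118279381 (1.61, 1.31 and 2.15 against 3.63, 5.07 and 2.12 FPKM; 1.22 ± 0.32, adjusted p = 0.052). Of 50 recognition and melanization genes 2 were higher (4.0%, beside 4.02% over the tested set), both described as peptidoglycan-recognition protein LB-like. They were LOC118274476 (16.5, 8.42 and 8.09 against 37.1, 91.0 and 35.4 FPKM, 2.43 ± 0.43, adjusted p = 0.015) and LOC118274475 (5.78, 5.00 and 3.59 against 40.7, 14.2 and 35.1 FPKM, 2.72 ± 0.62, adjusted p = 0.036, kept in 1 of the 6 fits). Of 39 serpins and clip proteases 2 were higher, an easter-like protease (LOC118280049, 1.2 ± 0.17, adjusted p = 0.009) and a serine protease inhibitor (LOC118279329, 2.09 ± 0.42, adjusted p = 0.023).

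A few calls fell in other lists. Odorant-binding protein LOC118267979 was abundant and without overlap, at 112, 96.6 and 116 against 386, 401 and 242 FPKM (1.78 ± 0.30, adjusted p = 0.014), and LOC118267783 (general odorant-binding protein 28a-like) went from 10.5 to 18.7 FPKM to 27.7 to 57.3 FPKM (1.70 ± 0.37, adjusted p = 0.028), 2 of 21 chemosensory genes in all. An allatostatin precursor (LOC118269156; 1.23, 1.40 and 0.302 against 4.67, 5.02 and 3.25 FPKM, 2.21 ± 0.56, adjusted p = 0.047) was the 1 higher of 18 neuropeptide genes, and its call was lost in each leave-one-out fit. A fatty acid-binding protein (LOC118275067, 1.12 ± 0.20, adjusted p = 0.015), a trehalose transporter (LOC118279231, 0.66 ± 0.17, adjusted p = 0.048) and the blood cell gene integrin beta-nu (LOC118272167, 0.95 ± 0.13, adjusted p = 0.0076, kept in all 6 fits) were each the only call of their lists.

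The O-acyltransferase-like gene LOC118269297, chosen after its values were seen, stood at 14.9, 12.4 and 13.8 FPKM in control and 53, 51.9 and 48.4 FPKM with spinetoram, even within both groups (2.01 ± 0.20, adjusted p = 0.0017, kept in all 6 fits). Among the largest rises outside the lists were 2 of the 3 expressed genes described as mediator of RNA polymerase II transcription subunit 15-like. The remaining gene of that description lay on the lower side, without overlap, and did not pass edgeR's test. LOC118276931 stood at 0.107, 0.0866 and 0.152 FPKM in control and 1.24, 5.75 and 4.29 FPKM with spinetoram (5.15 ± 0.70, adjusted p = 0.0069, kept in all 6 fits). LOC118276902 stood at 0.253 to 0.568 FPKM in control and at 1.08, 45.7 and 4.74 FPKM with spinetoram, replicate 2 being far above the others (5.65 ± 1.24, adjusted p = 0.03). LOC118262040 (proteoglycan 4-like) was listed at 0.203, 0 and 0 FPKM in control and 2.40, 4.70 and 2.56 FPKM with spinetoram (adjusted p = 0.036). It, LOC118276931 and LOC118276902 entered the set through the spinetoram libraries alone. Without a count in any control library were also the uncharacterized genes LOC118262020 (113, 8.29 and 27.7 FPKM with spinetoram, at least 688-fold higher against the same floor; adjusted p = 0.016, kept in 5 of the 6 fits) and LOC118274887 (13.4, 9.03 and 13.1 FPKM, at least 147-fold higher; adjusted p = 0.036, lost in each fit). Both were named after their values were seen.

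The genes that fell had a median step of -0.97 on the log2 scale. Of the 46 lists 26 had higher calls only, 2 lower calls only, 5 both and 13 none. UPF0488 protein CG14286 (LOC118276961), of no known role, had the largest fall among described genes called without overlap. It went from 11.4, 10.2 and 10.6 FPKM to 1.27, 0.548 and 1.33 FPKM, with even controls (-3.25 ± 0.67, adjusted p = 0.025, kept in 3 of the 6 fits). Hemicentin-2-like LOC118274152, an extracellular matrix protein, fell from 3.48, 12.6 and 15.8 FPKM to 0.698, 2.31 and 0.669 FPKM (-2.93 ± 0.67, adjusted p = 0.034). Carbohydrate sulfotransferase 4-like LOC118262951, which entered the set through the control libraries alone, fell by 1.97 on the log2 scale (SE 0.45, adjusted p = 0.034). Carbonic anhydrase 7 (LOC118268251), which interconverts carbon dioxide and bicarbonate, fell by 1.82 on that scale (SE 0.43, adjusted p = 0.037).

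Growth/differentiation factor 8-like LOC118280801, named for the vertebrate inhibitor of muscle growth, stood at 19.8, 35.5 and 19.9 FPKM in control and 3.47, 5.03 and 9.30 FPKM with spinetoram (-1.98 ± 0.42, adjusted p = 0.025). Follistatin-A-like genes, named for activin-binding antagonists, were LOC118266290 (5.14, 10.3 and 6.42 against 1.51, 1.21 and 2.62 FPKM; -1.94 ± 0.32, adjusted p = 0.013) and LOC118266124 (4.92, 8.40 and 4.44 against 1.01, 1.66 and 2.44 FPKM; -1.70 ± 0.38, adjusted p = 0.03). Lack of overlap between the groups was a condition for naming these genes. Against the mean of the other 3 treatments these genes differed by 0.13, -0.23 and -0.29, with adjusted p-values of 0.90, 0.73 and 0.71.

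Also among the largest falls were a pair of C1A cysteine protease precursors, papain-type enzymes. LOC118277561 fell from 47.4, 135 and 101 FPKM to 35.7, 14.2 and 22.3 FPKM (-1.88 ± 0.39, adjusted p = 0.025), and LOC118267144 from 25.3, 74.1 and 61.3 FPKM to 20.8, 9.46 and 12.9 FPKM (-1.79 ± 0.38, adjusted p = 0.027). In both, control replicate 1 was the lowest control and lay nearest to the spinetoram libraries. The only fall kept in all 6 leave-one-out fits was that of an uncharacterized gene, LOC118277826, named after its values were seen. It entered the set through the control libraries alone and went from 2.32, 1.97 and 2.71 FPKM to 0.884, 0.723 and 0.903 FPKM (-1.36 ± 0.15, adjusted p = 0.0022).

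DNA replication and mitosis genes leaned down: 2 of 26 were lower and none higher, 4 of 26 lay above 0, the median was -0.77 and DESeq2 called 8 lower. Proliferating cell nuclear antigen (LOC118261842), the sliding clamp of DNA polymerase, stood at 22.7, 27.5 and 14.6 FPKM in control and 6.86, 8.55 and 10.7 FPKM with spinetoram (-1.22 ± 0.27, adjusted p = 0.029), and the replication licensing factor LOC118275939 at 6.98, 9.52 and 6.06 against 3.43, 3.29 and 3.73 FPKM (-1.01 ± 0.21, adjusted p = 0.027). Neither passed without control replicate 2 or without spinetoram replicate 1 or 2, and 9 genes of the list did without control replicate 3. The summed level of the 26 was 232, 279 and 192 FPKM in control and 151, 145 and 180 FPKM with spinetoram.

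**Figure D4:**
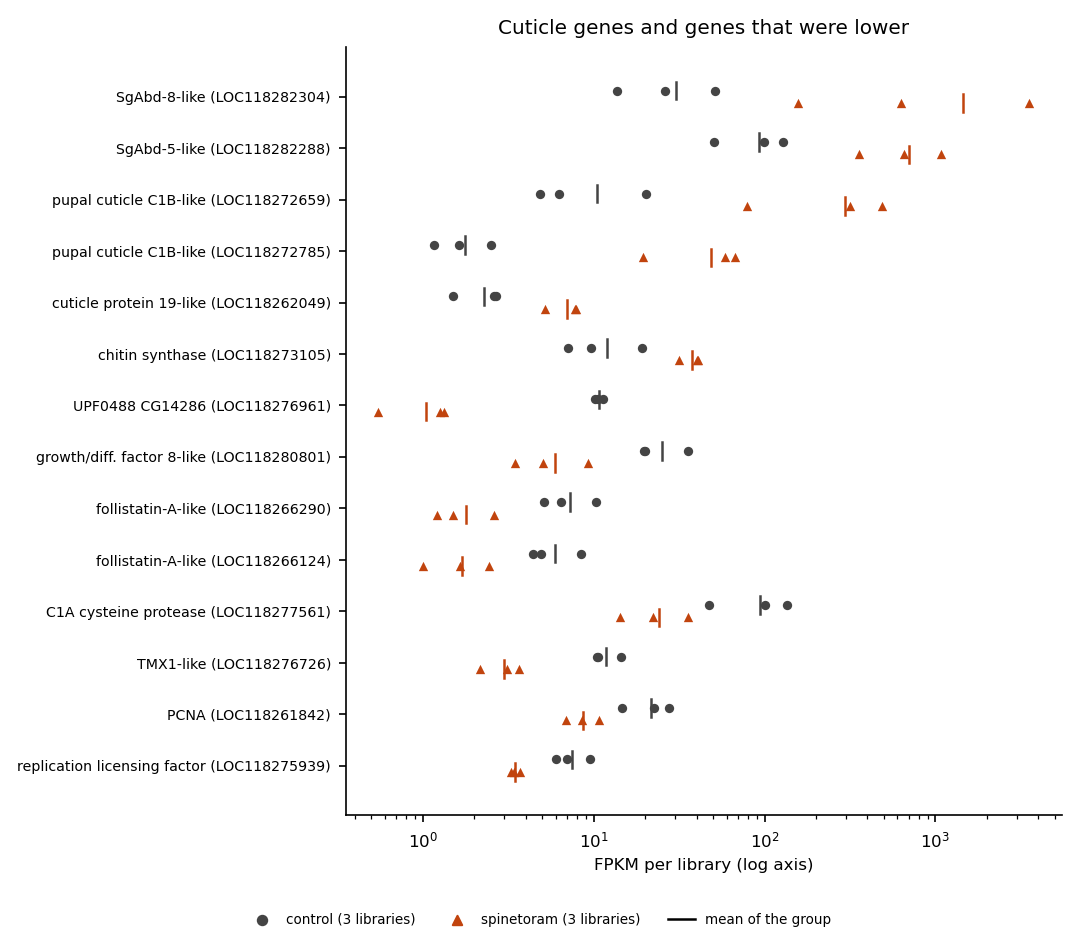
Deposited FPKM (log axis) of 6 cuticle and chitin genes that were higher and 8 genes that were lower, in the 3 control libraries (grey circles) and the 3 spinetoram libraries (red triangles), with a vertical bar at each group's mean. The groups do not overlap for any gene shown, which for most of them was a condition of being named. Spinetoram libraries spread most for SgAbd-8-like LOC118282304, from 157 to 3550 FPKM.

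Core metabolism and protein turnover showed no broad call. Of 17 glycolysis genes none passed edgeR's test or DESeq2's, 2 had an unadjusted p under 0.05, both lower, and 1 of 17 lay above 0 (median -0.39); glucose-6-phosphate isomerase (LOC118277306) stood at 28.2, 42.7 and 27.5 against 22.3, 20.4 and 22.3 FPKM (-0.50 ± 0.18, adjusted p = 0.14). Of 66 oxidative phosphorylation genes none passed edgeR's test or DESeq2's and 1 had an unadjusted p under 0.05. The median was -0.17, with 8 of 66 above 0. Of 86 cytosolic ribosomal protein genes none passed edgeR's test or DESeq2's and 6 had an unadjusted p under 0.05. The median was 0.16, with 76 of 86 above 0. The proteasome had 1 of 42 higher, subunit alpha type-3 LOC118267530 (6.04, 1.74 and 13.4 against 37.0, 26.5 and 18.6 FPKM; 2.11 ± 0.50, adjusted p = 0.039), while a gene of the same description, LOC118267527, chosen after its values were seen, stood at 85.4, 78.6 and 57.8 against 25.5, 34.8 and 48.2 FPKM (-0.93 ± 0.24, adjusted p = 0.052). Reads may have been split differently between the alpha type-3 pair. Over the 42 the median was -0.17 and 9 lay above 0; 8 had an unadjusted p under 0.05 in the lower direction and 1 in the higher, and DESeq2 called 4 lower and 1 higher. Their summed level did not overlap between groups, at 2070, 1960 and 2080 FPKM in control and 1620, 1660 and 1710 FPKM with spinetoram.

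Markers of other tissues varied among libraries as follows. Muscle genes, 31 in all, had 3 above 0, 1 lower (titin LOC118267707, -0.84 ± 0.21, adjusted p = 0.047) and a sum of 107000, 113000 and 68700 FPKM in control and 76500, 84200 and 79300 FPKM with spinetoram; DESeq2 and limma each called 4 lower. Silk gland genes, 11 in all, summed to 278, 284 and 2790 FPKM in control and 259, 790 and 649 FPKM with spinetoram, so control replicate 3 stood apart. None of the 11 passed edgeR's test. Those with an unadjusted p under 0.05 were 1 higher and 2 lower, and DESeq2 called 1 higher and 2 lower. Fat body storage genes, 9 in all, summed to 2010, 3790 and 5430 FPKM in control and 1910, 3760 and 3180 FPKM with spinetoram, with no call by edgeR, 1 unadjusted p under 0.05 and 1 call by DESeq2. Testis and axoneme genes ranged from 105 to 500 FPKM in control and from 44.3 to 1040 FPKM with spinetoram, with no call by edgeR or DESeq2 and 2 unadjusted p-values under 0.05. Of 6 calcium-handling genes, which include the ryanodine receptor, none passed edgeR's test or DESeq2's and 1 had an unadjusted p under 0.05; nearest was sarcoplasmic calcium-binding protein LOC118271854, at 277, 143 and 124 against 20.2, 17 and 83.9 FPKM (-2.10 ± 0.84, adjusted p = 0.18). The silk gland gene nearest to passing was fibrohexamerin-like LOC118279883, at 2.61, 1.49 and 0.164 against 29.6, 16.7 and 18.9 FPKM (3.98 ± 1.17, adjusted p = 0.078). The part of tissue composition in the calls above was not tested.

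**Figure D5:**
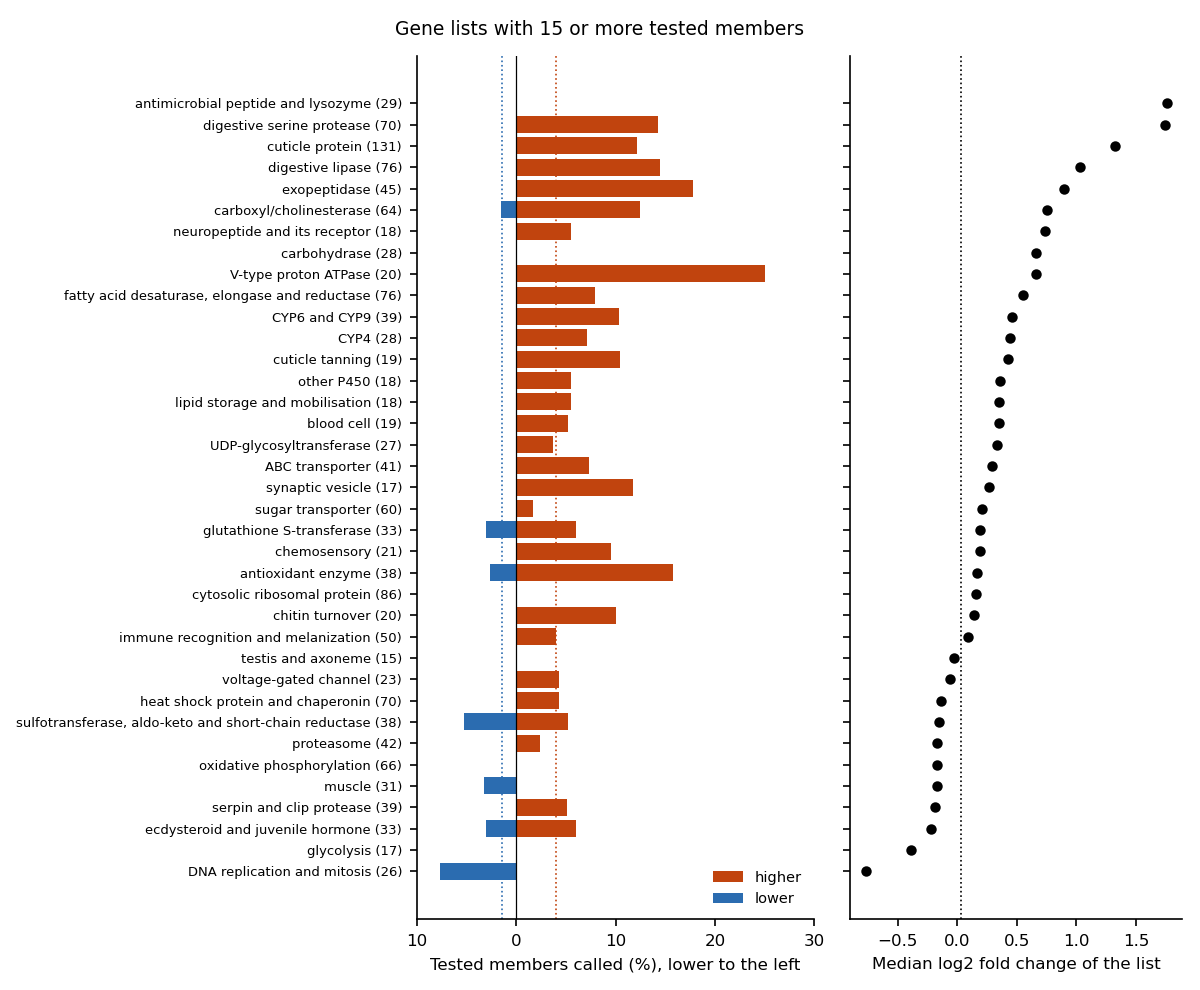
For the 37 gene lists with 15 or more tested members (number in parentheses), the left panel gives the percentage of members called higher (red) and lower (blue, to the left) by edgeR, with dotted lines at 4.02% and 1.41%, the shares over all tested genes of the set; the right panel gives the median log2 fold change, with a dotted line at the set's 0.03. The antimicrobial, serine protease and cuticle protein lists have the highest medians, at 1.76, 1.74 and 1.32, and DNA replication and mitosis the lowest.

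Set against the mean of the 3 other insecticide treatments instead of control, 296 of the 10351 genes differed (2.86%, beside 2.19% of all 15505 tested, 1.68% higher and 0.51% lower), 231 higher and 65 lower. Cuticle proteins gave 22 of these higher calls, of 131, and digestive lipases 6 of 76. Of the carboxyl/cholinesterases 4 were higher and 1 lower than in the other treatments. Among the detoxification genes named above, the carbonyl reductase LOC118273633 was lower than in the other treatments, by -1.81 ± 0.30 (adjusted p = 0.018). Differences that did not pass included 1.69 for 6B6-like LOC118263048 (adjusted p = 0.086), 0.43 for 6B6-like LOC118274175 (adjusted p = 0.60), -0.03 for LOC118275193 (adjusted p = 0.99), 0.67 for the epsilon glutathione S-transferase LOC118261931 (adjusted p = 0.21) and -1.18 for AKR2E4-like LOC118279828 (adjusted p = 0.24). For takeout LOC118275983 the difference was 0.13 (adjusted p = 0.82). A p that misses the threshold does not show that the treatments act alike. In contrast, larval cuticle protein A2B-like LOC118277982 stood 4.63 above the other treatments (adjusted p = 0.023), and peptidoglycan-recognition protein LOC118274476 stood 1.58 above (adjusted p = 0.03). The count of 296 fell to 46 without spinetoram replicate 3 and to 54 without spinetoram replicate 1. It was 252 without emamectin benzoate replicate 2, 303 without spinetoram replicate 2 and between 87 and 134 without any 1 of the remaining libraries, and limma-trend on log2(FPKM + 1) called 136, of which 67 were higher.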

How the data were processed

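Poly(A) RNA from TRIzol extracts had been sequenced from dUTP-marked libraries, per the labels' protocols, and 15 libraries (5 groups of 3) were analysed. The submitters' processing notes name HISAT2 2.0.4, cutadapt 1.9, DESeq2, edgeR and StringTie 1.3.4d, without roles; genome build and strand handling in counting are not given in the sources used here. The authors' deposited table gives an expected count per gene, whole numbers as deposited, and an FPKM per gene and library, in which 0.0001 stands for 0. One read pair was worth about 3.78 count units, estimated from the values, so the floor of 3 read pairs is 11.34 units; such floors cover counting error only.

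Counts were filtered with filterByExpr by group (minimum count 10), scaled by TMM and fitted in one model over the 15 libraries with edgeR 4.0.16 (R 4.3.3). The quasi-likelihood test was two-sided, with Benjamini-Hochberg adjustment over all 15505 genes tested and a threshold of 0.05; SE is the log2 fold change divided by the square root of F. Levels are deposited FPKM. Alternatives used DESeq2 1.42.0, limma 3.58.1 on log2(FPKM + 1) and log2(FPKM + 0.1), other filters and scalings, a replicate block and single libraries left out. An exact permutation test of 3 against 3 cannot go below p = 0.1 and was not used. The script was tested on simulated data.

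Genes named were drawn from the 12 largest rises and 12 largest falls that passed without overlap and have an informative description, for each list up to 2 higher and 2 lower genes of smallest p (or the 1 of smallest p where none passed), and every nicotinic receptor gene of the set; others are said to be chosen after their values were seen, and this holds for all lipases, runs and list totals that go beyond the rule. The set of genes and the 46 lists were chosen with earlier results of these data known. List patterns for glutathione S-transferases, ABC transporters, acid digestive lipases and fibrohexamerin were completed after values were seen. Lists rest on the deposited gene descriptions.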

Additional observations from a re-analysis of the deposited data

How the results depend on the processing

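The count of 562 genes against control became 1483 with DESeq2 (957 higher and 526 lower, all 562 included) and 2 with edgeR on the 6 libraries compared alone. Without 1 of those 6 libraries it ranged from 29 to 950. DESeq2 on the 6 libraries, an alternative chosen after seeing the data, called 790, of which 480 were among the 562. The count of 296 against the other treatments became 902 with DESeq2, 486 with only the libraries compared, 136 and 145 with limma at a pseudocount of 1 and 0.1, and 46 to 303 without 1 library. Deviations of same-numbered control and spinetoram libraries correlated at 0.09, 0.139 and -0.1, and 1 of 3 control libraries correlated best with its own number. With 3 libraries a group, these values cannot decide whether replicate numbers pair the samples. With the replicate number as a block, 410 genes were called against control, 380 of them among the 562, and 118 against the other treatments. Log2 fold changes that turned sign were those of nicotinic receptor genes: without 1 library LOC118263132 ran from -0.2 (without control replicate 1; -0.16 without control replicate 2) to 0.96, LOC118279296 from -0.64 to 0.19 and LOC118279341 from -0.67 to 0.26, the last 2 highest without control replicate 3. The causes were not tested. Over all alternatives, values of named genes kept direction and side of the threshold 1146 times, lost the call 331 times, gained one 20 times and reversed 4 times.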

Other observations

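Gene groups outside the lists above were collected after values were seen, so their counts are descriptions. Of 88 ribosome biogenesis genes 9 were lower and 1 higher by edgeR (10.2% and 1.14%, beside 1.41% and 4.02% over the tested set), with a median log2 fold change of -0.29. Fibrillarin (LOC118276839), the methyltransferase of box C/D particles that modify ribosomal RNA, stood at 65.0, 77.9 and 50.6 FPKM in control and 32.0, 25.4 and 36.4 FPKM with spinetoram (-0.95 ± 0.19, adjusted p = 0.024). Its partners nucleolar protein 56 (LOC118270631, -0.61, adjusted p = 0.027) and nucleolar protein 58 (LOC118273433, -0.65, adjusted p = 0.036) were lower too, none of the groups overlapping. Ribonuclease P subunit p40-like LOC118276300 was the 1 higher gene (1.41 ± 0.23, adjusted p = 0.013). Replication protein A subunits LOC118268917 (-1.13, adjusted p = 0.019) and LOC118269327 (-0.99, adjusted p = 0.03), which coat single-stranded DNA, were among 5 lower of 41 genes of the DNA replication pathway.

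Sphingolipid genes had 8 higher and 1 lower of 33 (24.2% and 3.03%, beside 4.02% and 1.41% over the tested set), with a median of 0.69. Ceramide glucosyltransferase (LOC118277427), which makes glucosylceramide, stood at 6.81, 5.75 and 7.51 FPKM in control and 16.8, 13 and 13.2 FPKM with spinetoram (1.21 ± 0.15, adjusted p = 0.0045, kept in all 6 leave-one-out fits). Neutral ceramidase (LOC118265043), which splits ceramide, entered the set through the spinetoram libraries alone. It went from 0.547 to 0.650 FPKM to 2.96 to 5.89 FPKM (3.03 ± 0.54, adjusted p = 0.016). Ceramide synthase 6-like LOC118275078 fell by 0.64 on the log2 scale (adjusted p = 0.028). Of 16 tetraspanins, membrane scaffold proteins, 4 were higher (25.0%, beside 4.02% over the tested set). CD63 antigen-like LOC118266618 went from 48.1, 33.4 and 51.1 FPKM to 137, 110 and 121 FPKM (1.59 ± 0.20, adjusted p = 0.0049, kept in all 6 fits), in a run of 4 neighbouring genes over 36.5 kb that were all higher. REPAT39 (LOC118277155), of a family known in armyworms for its response to bacterial toxins, stood at 24, 4.88 and 7.99 FPKM in control and 61.5, 384 and 72.4 FPKM with spinetoram (3.95 ± 0.91, adjusted p = 0.036), highest in spinetoram replicate 2, which also held the highest antimicrobial peptide sum.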
